A study of Homo sapiens with 45 samples.

Results

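The MBD2 regions of HEK293T chromatin were compared between cells treated with the compound BPK25 and cells given the solvent DMSO. A region was a distinct chromosome, start and end in the authors' peak list on the hg19 build, and regions of both lists counted as shared when they overlapped by 1 bp or more. The BPK25 list held 510 regions and the DMSO list 15991, out of 53743 regions in the 12 lists of the series. Of the DMSO regions, 232 overlapped a BPK25 region and are called kept, and 15759 did not and are called lost. Of the BPK25 regions, 237 lay at a kept DMSO region and 273 at none, and the 273 are called newly listed. These words describe membership in lists, not binding measured in single libraries.

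MBD2 is a methyl-CpG-binding protein. It is a subunit of the NuRD complex, which joins a nucleosome remodeller to histone deacetylases, and it takes the place of MBD3, a paralog that binds methylated DNA poorly, so that a complex holds MBD2 or MBD3. CTCF is a zinc finger protein found at insulators and chromatin loop anchors. TET1 is an enzyme that oxidises the methyl group of cytosine, a step towards demethylation. The series title names NuRD and chromatin at CTCF sites, and the comparison asks which MBD2 regions are still listed after BPK25.

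HEK293T is a human embryonic kidney cell line. BPK25 is a compound known for lowering the amount of NuRD proteins in cells, and DMSO is the solvent given alone. Cells had 30 µM BPK25, 0.5 mM IAA or DMSO for 72 h, and chromatin was precipitated with antibodies to CTCF, MBD2, MBD3 or TET1. The growth notes name HEK293T and edited cells derived from it without saying which were used for a library, and neither the protein that IAA acts on nor separate cultures for the replicates are named. Each MBD2 list was called by the authors on 3 libraries together, so a group has 1 value, no spread between replicates can be given and no difference between treatments was tested. The 95% intervals below are Wilson intervals for shares and order-statistic intervals for medians, and they cover counting over regions only. Fold enrichment and significance are the authors' values and serve to describe and rank regions within a list. Where folds of different lists are given side by side, each depends on the depth and control of its own list. Their differences were not tested.

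The lists differed in local background. The fragments piled up at a summit and its local background were recovered from the deposited fold and significance for 509 of the 510 BPK25 regions and 15974 of the 15991 DMSO regions. The smallest local background of a list, here called its floor, was 1.86 fragments for BPK25 MBD2 and 3.77 fragments for DMSO MBD2, a ratio of 49.5%. The same ratio was 5.89% for CTCF, 7.92% for MBD3 and 20.4% for TET1, so of the 4 pairs the MBD2 lists were the closest in floor. The floor stands in for depth below, since depth itself is unknown, and it can also depend on the control and the caller's scaling. Background up to 3 times the floor is called low, and anything above that raised. The BPK25 MBD2 list also shared most of its strongest newly listed regions with the IAA list of CTCF, which is described with the newly listed regions, and values without those regions are given there.

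Few MBD2 regions of DMSO cells were still listed after BPK25. The kept share was 1.45% (interval 1.28 to 1.65), which is the share of all DMSO MBD2 regions and the base against which the shares below are read. Seen from the BPK25 list, 46.5% (42.2 to 50.8) of regions lay at a DMSO MBD2 region and 53.5% (49.2 to 57.8) were newly listed. For the other antibodies, the share of DMSO regions with a BPK25 region of the same antibody was 1.27% for CTCF, 1.71% for MBD3 and 6.91% for TET1. IAA gave 98 kept MBD2 regions, 0.613%, from a list of 138 regions.

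Kept regions were broader than lost ones in the DMSO list. Under BPK25, the regions at kept places had a median width of 315 bp and the newly listed regions one of 263 bp. In the DMSO list, kept regions had a median width of 415.5 bp, with quartiles at 307.5 and 652 bp, and lost regions one of 252 bp, with quartiles at 223 and 296 bp. The widest quartile of DMSO regions, from 299 to 2504 bp, held 179 of the 232 kept regions and had a kept share of 4.53% (3.92 to 5.22). From the narrowest quartile upward, the other quartiles had kept shares of 0.396%, 0.375% and 0.550%. Among regions of low background alone the order was the same at the top, with 2.61% in the widest quartile and 0.187%, 0.191% and 0.281% in the narrower ones.

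**Figure D1:**
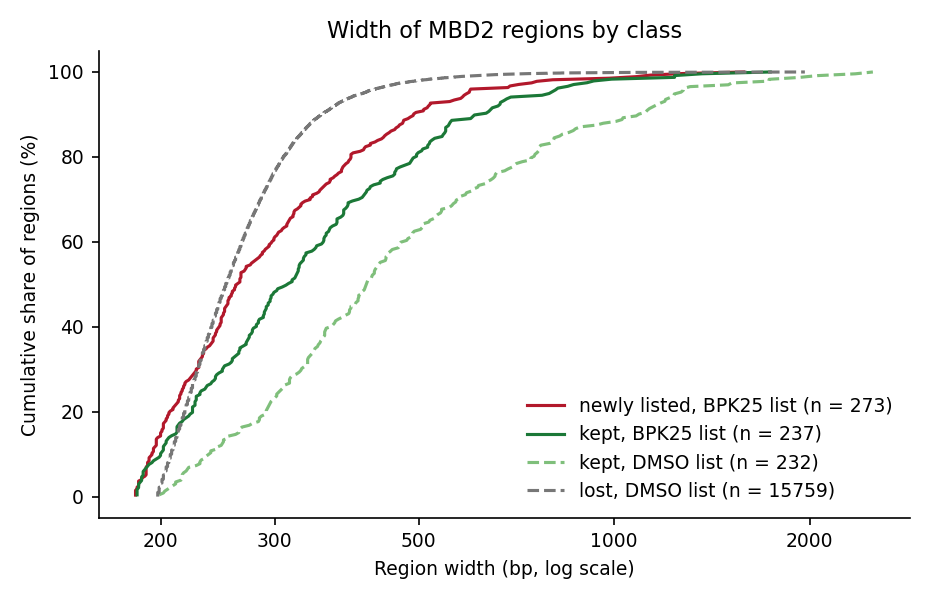
Cumulative share of MBD2 regions (vertical axis, %) by region width (horizontal axis, bp on a log scale), with BPK25 values as solid lines and DMSO values as dashed lines. The line of kept regions in the DMSO list lies furthest to the right, with a median of 415.5 bp, and that of lost regions turns most steeply, with a median of 252 bp.

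Of the 15991 DMSO regions, 339 (2.12%) held several summits, the points of highest pileup that the authors' caller listed separately within a region. Several summits were listed in 79 of the 232 kept regions (34.1%, 28.3 to 40.4) and in 260 of the 15759 lost regions (1.65%). DMSO regions with 1 summit were kept in 153 of 15652 cases, 0.978%, and those with 2 summits in 47 of 281, 16.7% (12.8 to 21.5). With 3 summits, 24 of 40 regions were kept (60%, 44.6 to 73.7), and with 4 or more, 8 of 18. At low background the shares ran 0.554%, 8.14%, 44% and 38.5%, the last from 5 of 13 regions. The kept share was thus higher for regions with several summits at low background as well, while most kept regions had 1 summit.

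The kept regions came in about equal numbers from low and raised background. In the DMSO list, 112 kept regions had a low background, 115 a raised one, and 5 could not be solved. Lost regions had a low background in 14232 cases, 90.3%. The kept share was thus 0.781% (0.649 to 0.939) at low background and 7.06% (5.91 to 8.40) at raised background. The 112 kept regions of low background had a median DMSO width of 446.5 bp, a median DMSO fold of 4.98 and a median DMSO pileup of 40.5 fragments. The 115 of raised background had a median width of 390 bp, a median fold of 1.74 and a median pileup of 304 fragments over a background of 50.02 times the floor. Both kinds are given apart below where their values differ.

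Most kept regions lay where CTCF, MBD3 and TET1 were listed together in DMSO cells. In DMSO, CTCF was listed at 216 of the 232 kept regions (93.1%, 89.1 to 95.7), MBD3 at 208 (89.7%) and TET1 at 199 (85.8%). Of the lost regions, 73.2% (72.5 to 73.9) overlapped CTCF, 47.4% MBD3 and 35.0% TET1. With the DMSO list shortened to 510 regions, CTCF was at 100% of kept and 99.6% of lost regions, so the CTCF contrast was not seen there. All 3 partners were listed at 187 kept regions, 80.6% (75.03 to 85.2), and at 3824 lost regions, 24.3%. No partner was listed at 9 kept and 3123 lost regions.

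Read the other way, the kept share was alike with 0 and 1 partner and highest with the full set. It was 0.287% for MBD2 regions with no DMSO partner, 0.218% with 1 partner, 0.610% with 2 and 4.66% (4.05 to 5.36) with all 3. MBD2 regions with CTCF as the only partner, the most frequent pattern apart from the full set with 3661 regions, were kept in 5 cases, 0.137% (0.0584 to 0.319). With CTCF and MBD3 but no TET1, 16 of 2850 were kept, 0.561%, and with CTCF and TET1 but no MBD3, 8 of 1228, 0.651%. At low background the shares for 0 to 3 partners were 0.235%, 0.192%, 0.441% and 2.40%. Width and pileup were not matched between these classes, and their part in the kept share was not tested.

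Other lists of treated cells also held the kept regions. Under BPK25, 84 of the 232 overlapped a CTCF region (36.2%), 88 an MBD3 region (37.9%) and 122 a TET1 region (52.6%), and 47 overlapped all of these lists. The lost regions overlapped them in 105, 74 and 552 cases, which is 0.666%, 0.470% and 3.503%. Under IAA, 81 kept regions overlapped a CTCF region, 51 an MBD2, 40 an MBD3 and 47 a TET1 region. Over all DMSO MBD2 regions these shares were 0.951%, 0.613%, 0.457% and 0.475%, and lost regions gave 71, 47, 33 and 29 cases. A total of 18 kept regions were listed in all 12 lists. Of these, 17 had a raised background, 1 was not solved and none had a low background. At low background, the BPK25 list of CTCF held 15 of 112 kept regions, that of MBD3 held 14 and that of TET1 held 54. At raised background the counts were 66, 72 and 63 of 115. Lost regions had shares of 0.232%, 0.134% and 2.87% for CTCF, MBD3 and TET1 at low background, and 4.49%, 3.23% and 9.37% at raised background, so more of them were in these lists at raised background too. None of those 112 overlapped an IAA MBD2 region, while 49 of the 115 of raised background did.

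**Figure D2:**
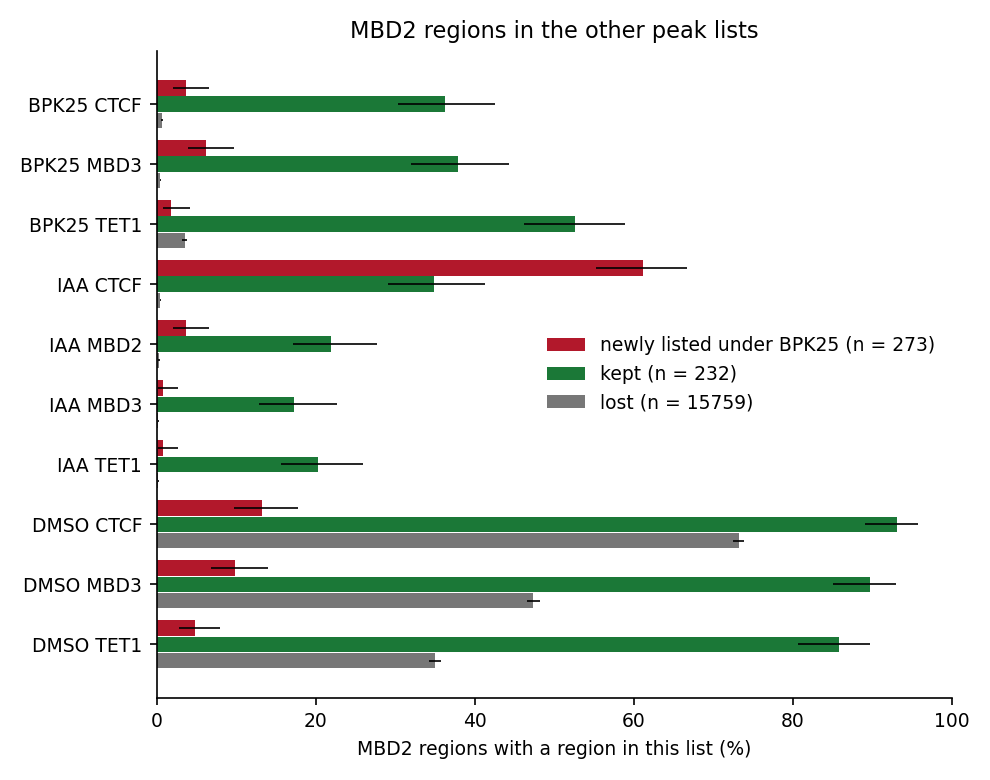
Share of MBD2 regions with a region in each of the 10 other peak lists (horizontal axis, %), for newly listed, kept and lost regions, with 95% Wilson intervals as lines. Kept regions lie at 93.1%, 89.7% and 85.8% in the DMSO lists of CTCF, MBD3 and TET1, and newly listed regions reach 61.2% in the IAA list of CTCF.

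The kept regions were spread unevenly over the chromosomes. Chromosome X had 26 kept of 679 DMSO regions, 3.83% (2.63 to 5.55), chromosome 17 had 25 of 845, 2.96% (2.01 to 4.33), and chromosome 18 had 7 of 237, 2.95% (1.44 to 5.97). The lowest shares were 0.335% on chromosome 5, from 3 of 896, and 0.340% on chromosome 19, from 2 of 588. At low background the same chromosomes led, with 15 of 557 on X (2.69%, 1.64 to 4.40), 5 of 193 on 18 (2.59%) and 13 of 680 on 17 (1.91%). The intervals of chromosomes 17, 18 and X overlap, and those of 5 and 19 overlap each other and lie below that of X. Close groups, described below, held part of these regions, with 4, 5, 5 and 3 kept regions on X and 6 on chromosome 17. On X, a group of 5 and the group of 3 had a low background. The intervals count such neighbours as separate regions. A share per chromosome thus rests in part on a few places. Chromosome Y and the contigs outside chromosomes 1 to 22 and X together held 33 kept of 114 DMSO regions, 28.9% (21.4 to 37.9). Of these 33, 15 lay on chr9_gl000199_random and 15 on chrUn_gl000226, which held 36 and 17 DMSO regions. At low background the same places held only 1 kept of 46 DMSO regions, 2.17% (0.385 to 11.3).

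**Figure D3:**
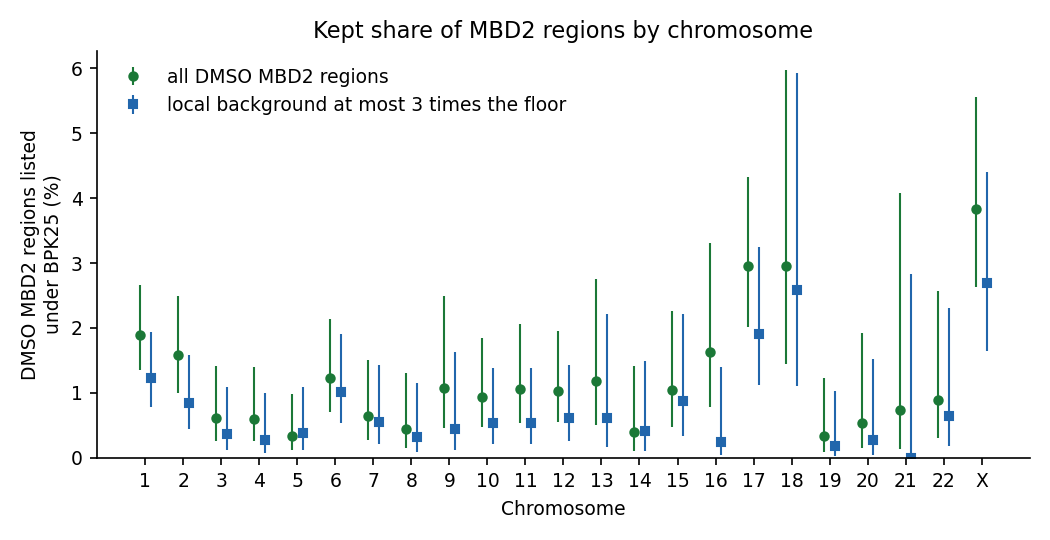
Share of DMSO MBD2 regions that were also listed under BPK25 (vertical axis, %) by chromosome, for all regions (circles) and for regions of low local background (squares), with 95% Wilson intervals. Chromosome X is highest at 3.83% for all regions and 2.69% at low background.

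Kept regions also lay near chromosome ends more often than lost ones. On chromosomes 1 to 22 and X, 18 of 199 kept regions (9.05%, 5.80 to 13.8) lay within 1 Mb of either end, and 273 of 15678 lost regions (1.74%, 1.55 to 1.96). Of newly listed regions, 15 of 259 (5.79%) did so. Ends were taken as the first base and the furthest region end in the 12 lists.

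Some kept regions stood in close groups. With 3 or more kept regions each at most 20 kb from the next, there were 7 groups with 33 regions. In 5 of them every DMSO fold was between 1.19 and 2.17 and the local background was 13.3 to 447 times the floor. Their spans were 92281277 to 92320668 of chromosome 2, 51582636 to 51590589 of chromosome 11, 22245600 to 22260680 of chromosome 17, and 58568556 to 58581092 and 61718668 to 61734196 of chromosome X. The 2 remaining groups had a low background and both lay on chromosome X. From 73037609 to 73071618, 5 of 15 DMSO MBD2 regions were kept, with DMSO folds of 2.79 to 4.92 and a background of 1.84 to 2.11 times the floor. From 107963261 to 107967904, 3 of 3 were kept, with DMSO folds of 4.21 to 5.75. Neither group had a region in the IAA list of CTCF.

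Summits lay close together at kept regions. Each kept DMSO region was paired with the BPK25 region of largest overlap, and 4 DMSO regions had met more than 1 BPK25 region. The median distance between the summits was 28.5 bp (22 to 35), and 147 of 232 summits (63.4%) lay within 50 bp of each other. A distance over 150 bp was found for 51 pairs (21.98%). The BPK25 summit lay at the higher coordinate in 104 pairs and at the lower one in 128. In 222 pairs it fell inside the DMSO region. Pairs were chosen by overlap, which itself limits how far apart their summits can lie. At low DMSO background the median distance was 38.5 bp (26 to 53), and at raised background 21 bp (13 to 32). The median distance was 23 bp where the DMSO region had 1 summit and 53 bp where it had several.

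The BPK25 region was usually the narrower of the pair. The median ratio of BPK25 width to DMSO width was 0.809 (0.766 to 0.849), and 182 of 232 BPK25 regions (78.4%) were narrower. The BPK25 region lay wholly inside the DMSO region in 133 pairs (57.3%) and held the whole DMSO region in 22. Of the 79 DMSO regions with several summits, 54 had fewer under BPK25. At low DMSO background the median ratio was 0.710 and 95 of 112 were narrower, and at raised background it was 0.909. The BPK25 list also had the lower floor of the pair, and the part of depth in the width ratio was not tested.

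Pileups at kept regions were compared with the ratio of the floors. At the 102 pairs with a low background in both lists, the median pileup was 18 fragments under BPK25 and 38.5 fragments in DMSO. The median ratio of BPK25 to DMSO pileup was 0.469 (0.41 to 0.55), with quartiles at 0.330 and 0.639. Of these pairs, 52 lay under the floor ratio of 0.495 and 50 above it. In the median, these pileups were thus close to the DMSO pileups multiplied by the floor ratio, with a wide spread. At the 115 pairs of raised DMSO background, the median pileups were 210 and 304 fragments under BPK25 and in DMSO. Their median pileup ratio was 0.642, and 25 lay under the floor ratio. The local background at these 115 pairs had a median ratio of BPK25 to DMSO of 0.584, and at the 102 pairs one of 0.425. The pileup includes this background, and its part in the pileup ratios was not tested. A region enters this comparison only if it passed the caller's threshold in the BPK25 list, which removes low BPK25 pileups.

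**Figure D4:**
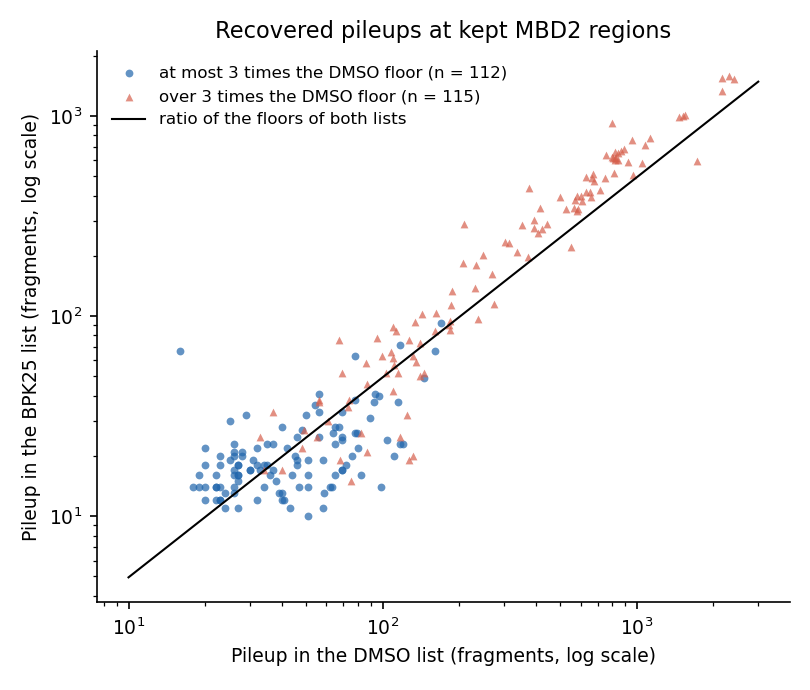
Recovered pileup at kept MBD2 regions in the BPK25 list (vertical axis) and in the DMSO list (horizontal axis), in fragments on log scales, by DMSO local background. The line marks the ratio of the floors, 0.495. Points of low background scatter around the line, and 25 of the 115 points of raised background lie under it.

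The named kept regions of highest BPK25 fold were also listed for MBD3 and TET1 under BPK25 and for all 3 partners in DMSO. Regions are named on chromosomes 1 to 22 and X with a −log10 q of 5 or more, which 106 kept pairs had in both lists. At any significance, the highest BPK25 fold at a kept region was 21.9, on chromosome 2 from 38708918 to 38709908. That region, picked after seeing the values, had a DMSO −log10 q of 3.36, and of the other lists only IAA CTCF held it. Among the named pairs, the highest lay on chromosome 11 from 62608763 to 62609286, with a fold of 20.6 and a pileup of 114 fragments under BPK25. The DMSO region there, from 62608741 to 62609318, had a fold of 10.1 and a pileup of 186 fragments, and the summits were 11 bp apart. This place had a fold of 11.6 for TET1, 9.04 for MBD3 and 4.86 for CTCF under BPK25. On chromosome 1, the BPK25 region from 148241488 to 148242092 had a fold of 13.8 and a pileup of 76, and the DMSO region from 148241465 to 148242056 a fold of 9.67 and a pileup of 127.

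Of the next regions in this order, 3 lay on chromosome 17. The BPK25 region from 56708722 to 56709278 had a fold of 13.6 and covered 557 bp of a DMSO region of 1162 bp and fold 10.3. On the same chromosome, from 56756601 to 56757059, the BPK25 fold was 13.1 and the DMSO fold 10.4. From 19091266 to 19091914 the folds were 12.3 under BPK25 and 14.3 in DMSO, and this place was listed in 11 of the 12 lists. All of these summits lay within 81 bp of each other in the pair of lists.

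The 3 largest summit distances among the named pairs were at broad regions with several summits. Of the 51 pairs over 150 bp apart, 31 had several DMSO summits and 20 had 1. On chromosome 19, the DMSO region from 43694710 to 43697213 was 2504 bp wide with 6 summits. The BPK25 region from 43696391 to 43697238 was 848 bp wide, overlapped its right part and had its summit 1019 bp further to the right, with a fold of 6.47 under BPK25 and 6.75 in DMSO. On chromosome 6, the BPK25 region from 170707616 to 170709355 was the widest kept region at 1740 bp, and its summit lay 903 bp to the right of that in the DMSO region from 170707639 to 170709137. The folds there were 4.96 under BPK25 and 2.31 in DMSO. A kept region of 1365 bp under BPK25 did not meet the limits for naming. Among the named pairs, the next in BPK25 width, at 1239 bp each, lay on chromosomes 1 and 7. The folds were 5.68 under BPK25 and 3.41 in DMSO on chromosome 1, 236876988 to 236878226, and 6.04 under BPK25 and 5.13 in DMSO on chromosome 7, 26226359 to 26227597. On chromosome X, from 58572723 to 58573229 under BPK25, the summit distance was -767 bp, to the left of the DMSO summit, with folds of 1.50 under BPK25 and 1.53 in DMSO at over 100 times the floor.

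Regions of smallest overlap and newly listed regions closest to a DMSO region were as follows. The smallest overlap with a −log10 q of 5 or more in both lists was 179 bp, on chromosome 18 between the BPK25 region from 110290 to 110490 and the DMSO region from 110312 to 110657. Next were 184 bp on chromosome 18, in the BPK25 region from 32987947 to 32988130, and 184 bp on chromosome X, in that from 61689868 to 61690053. These 3 BPK25 regions were narrow, at 201, 184 and 186 bp, so the overlap took up most or all of each. At any significance, the smallest was 44 bp on chromosome 6, between the BPK25 region from 74228759 to 74229169 and the DMSO region from 74229126 to 74229356. Just outside, the newly listed region on chromosome 7 from 5566939 to 5567447 lay 141 bp from a DMSO MBD2 region. The next were 176 bp away (chromosome 16, 90183914 to 90184403) and 312 bp away (chromosome 18, 109808 to 109999). At any significance the closest was 73 bp away, on chromosome X from 73068131 to 73068371. The regions given at any significance were chosen after their values were seen.

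The DMSO regions of highest significance were kept more often than DMSO regions as a whole, and a BPK25 TET1 region was more frequent there than an MBD2 region. Of the 100 DMSO MBD2 regions of highest significance, 28 were kept and 57 had a BPK25 TET1 region. Of the first 500, 63 were kept and 170 had TET1, and of the first 1000 the counts were 86 and 233. At low background, 14 of the first 100 were kept and 47 had TET1. Of the first 5000, 131 were kept, 2.62%. With a −log10 q of 5 or more in DMSO, 194 of 13765 regions were kept, close to the share of all regions, and the median DMSO fold was 3.39 for kept and 4.54 for lost regions. Over all 15991 regions, TET1 was listed under BPK25 at 674, 4.21% (3.91 to 4.54), CTCF at 189, 1.18%, and MBD3 at 162, 1.01%. Under BPK25 the MBD2 list held 510 regions at a floor of 1.86 fragments and the TET1 list 777 regions at 1.16 fragments, and the part of list length and depth in these counts was not tested.

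At 552 lost regions a TET1 region was listed under BPK25. Their median DMSO width was 299 bp, between the 415.5 bp of kept and the 252 bp of all lost regions. Their median DMSO fold was 5.43, above both the 3.39 of kept and the 4.54 of all lost regions. The BPK25 TET1 summit lay a median of 15 bp from the DMSO MBD2 summit there, and 22.5 bp at the 122 kept regions that had one. In DMSO, CTCF was listed at 509 of the 552 (92.2%) and TET1 at 370 (67.0%). Of the 122 kept ones, 116 had TET1 in DMSO (95.1%).

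To set depth beside the kept share, the DMSO pileup and background of each solved region were multiplied by the floor ratio of 0.495. The Poisson −log10 p of the scaled values was then compared with 5.18, the least in the BPK25 MBD2 list. Of 15974 solved DMSO regions, 12278 reached it after scaling, and 172 of them were kept, 1.40% (1.21 to 1.62). Of the 3696 that did not reach it, 55 were kept, 1.49% (1.15 to 1.93). At low background 10850 reached it, of which 77 were kept (0.710%) and 417 had a BPK25 TET1 region (3.84%). This is an arithmetic scaling by 1 ratio, with no account of how the authors' threshold on q depends on the whole list or of differences between control libraries.

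Past that level, the kept share grew with the scaled significance. At low background it was 1.002% (0.721 to 1.39) for the 3494 regions under 5.18. It was 0.350% for a scaled −log10 p from 5.18 to 10, 0.8002% from 10 to 20, 6.05% (3.91 to 9.26) from 20 to 40 and 22.2% (10.6 to 40.8) at 40 or more, the last from 6 of 27 regions. For BPK25 TET1 at the same regions the share was 1.29% under 5.18, and in the classes above it 2.00%, 5.10%, 26.1% (21.6 to 31.2) and 74.1% (55.3 to 86.8). Both shares count the same DMSO regions, in BPK25 lists of unlike length and floor, and their difference was not tested. The 21 lost regions of the highest class had a median DMSO pileup of 123 fragments, 60.8 after scaling, while a pileup of 17 would have reached the least listed significance. In the class from 20 to 40, 295 lost regions had a median DMSO pileup of 76, 37.6 after scaling, with 15 needed.

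**Figure D5:**
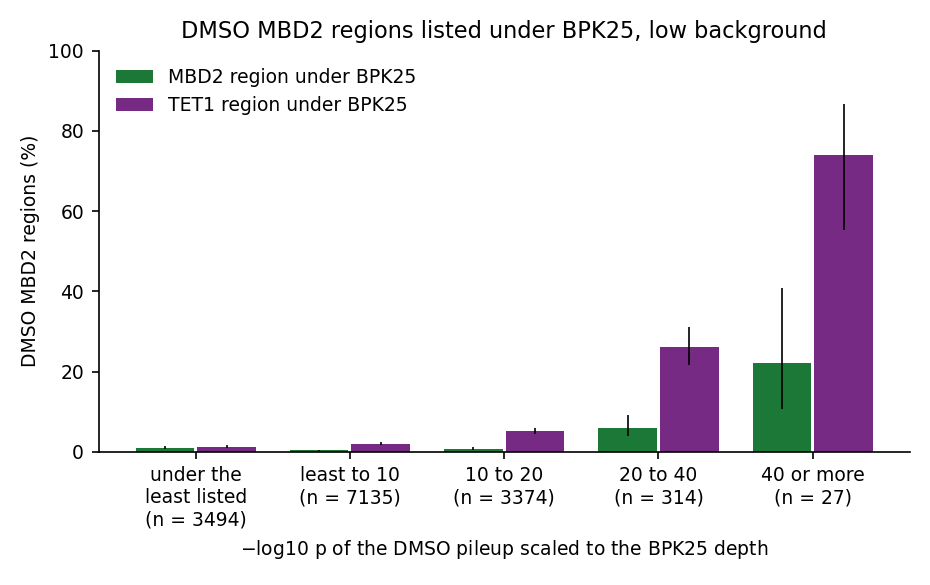
Share of DMSO MBD2 regions of low background with an MBD2 or a TET1 region under BPK25 (vertical axis, %), by scaled −log10 p (horizontal axis). The DMSO pileup and background were scaled by the ratio of the MBD2 floors, and lines are 95% Wilson intervals. The MBD2 bars are at 6.05% and 22.2% in the upper classes and the TET1 bars at 26.1% and 74.1%.

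Some of the strongest MBD2 regions of DMSO cells were among the lost. The lost region of highest DMSO fold, 21.2, lay on chromosome 9 from 11236 to 11665 with a DMSO pileup of 121 fragments, and no BPK25 list held it. Likewise absent from the BPK25 lists was that on chromosome 3 from 115538619 to 115538993, with a DMSO fold of 15.3. At 3 others TET1 was listed under BPK25. On chromosome 15, from 102519398 to 102520062, the BPK25 TET1 fold was 9.86 and the DMSO MBD2 fold 16.7. The folds were 6.44 for BPK25 TET1 and 16.2 for DMSO MBD2 on chromosome 17, 43212644 to 43212977. They were 9.31 for BPK25 TET1 and 15.7 for DMSO MBD2 on chromosome 5, 122946764 to 122947268. All 5 overlapped regions of CTCF, MBD3 and TET1 in DMSO.

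Newly listed MBD2 regions differed from kept ones in background and in the other lists that held them. Of the 273, 240 had a low background (87.9%, 83.5 to 91.3), and of the 237 BPK25 regions at kept places 122 did (51.5%, 45.1 to 57.8). At any background, the 273 had a median fold of 4.92 and a median pileup of 18 fragments. BPK25 regions at a DMSO MBD2 region had a median fold of 3.87 at any background. At the 102 kept pairs of low background in both lists the median BPK25 fold was 4.597, closer to that of the newly listed regions. Several summits were listed in 14 (5.13%). They lay a median of 31828.5 bp from the nearest DMSO MBD2 region, with 29 of 272 within 1 kb and 69 over 100 kb away, where 272 lay on a chromosome or contig that had one. DMSO CTCF, MBD3 or TET1 was listed at 43 of the 273 and at 269 of all 510 BPK25 MBD2 regions (52.7%), and 61 were in no other list of the series. Under BPK25 itself, 10 overlapped a CTCF region, 17 an MBD3 region and 5 a TET1 region, where the shares over all 510 were 18.4%, 20.6% and 25.1%.

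Most newly listed regions recurred in the IAA list of CTCF. That list, from another treatment and another antibody, held a region at 167 of the 273, 61.2% (55.3 to 66.8). It held one at 246 of all 510 BPK25 MBD2 regions, 48.2%, and at 79 of the 237 at kept places, 33.3%. On chromosomes 1 to 22 and X, it held all of the 50 newly listed regions of highest fold, 96 of the first 100 and 160 of all 259. The 167 had a median width of 313 bp, a median fold of 6.28 and a median pileup of 22 fragments, and the 106 others a median width of 228 bp, a median fold of 4.07 and a median pileup of 15. The −log10 q of the 106 had a median of 2.85, while the least in the list was 1.30.

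The recurrence was close in position and in order of fold. Summits in the 2 lists lay a median of 21 bp apart, and 122 of 167 within 50 bp. The median fold was 6.28 in BPK25 MBD2 and 15.0 in IAA CTCF, and the BPK25 MBD2 fold was the lower one at 163 of the 167. Spearman's rho of the folds over these 167 regions was 0.791. It is given as a description without a test, since all points of an axis share the depth and control of 1 list. Of the 167, 162 were in no DMSO list. Without these 162 regions, a choice made after seeing the data, 68.1% (63.0 to 72.8) of the remaining 348 BPK25 MBD2 regions lay at a DMSO MBD2 region, against 46.5% of all 510. Whether each list holds fragments of its own libraries only was not tested.

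The 5 newly listed regions of highest fold were all IAA CTCF regions and in no DMSO list. On chromosome 5, the region from 177482612 to 177483178 had a BPK25 MBD2 fold of 25.9 and an IAA CTCF fold of 70.4, and that from 55800500 to 55800920 folds of 22.7 and 63.0 in the same order. On chromosome 3, from 185135418 to 185136555, the folds were 19.9 for BPK25 MBD2 and 48.0 for IAA CTCF. On chromosome X, from 39646913 to 39647429, they were 19.1 and 67.0, and on chromosome 1, from 53237877 to 53238348, 18.5 and 34.7, again BPK25 MBD2 before IAA CTCF. The nearest DMSO MBD2 region was between 13889 and 545117 bp away.

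Newly listed regions also formed 3 groups of at least 3 within 20 kb of the next, with 9 regions in all. On chromosome 15, from 99797788 to 99799638, all 3 members overlapped an IAA CTCF region and no DMSO MBD2 region lay in the span. In the spans 74227354 to 74230765 of chromosome 6 and 26222690 to 26236598 of chromosome 7, 1 of 3 did so, and kept regions lay among them. The kept region with the highest ratio of BPK25 to DMSO pileup, named after seeing the values, also had an IAA CTCF region. On chromosome 2, from 38708918 to 38709908, it had a fold of 21.9 and a pileup of 67 fragments under BPK25, against a fold of 3.56 and a pileup of 16 in the DMSO region from 38709029 to 38709244, and its IAA CTCF fold was 63.2.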

How the data were processed

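Peak lists from ChIP-seq of HEK293T cells were used, 1 per treatment and antibody. Samples were grouped by the treatment and antibody in their labels, and the authors pooled replicates 1 to 3 for each list and called it against a control, per the labels' file names. Per the submitters' processing notes, the build was hg19 and the tools were MACS2 2.1.2, Bowtie2 2.3.4, deepTools 3.5.0, bedtools 2.25.0, FastQC 0.11.7 and SAMtools 1.9. For the caller's settings, the sources used here hold no entry. The fold in the deposited lists is the linear ratio, at a summit, of the pileup over the local background. Deposited beside it are the p-value and the q-value as −log10, a score that is 10 times the −log10 q, and the summit's offset. Coordinates are printed 1-based.

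Sub-peaks with the same start and end were counted as 1 region, with summit and values from the most significant of them. Pileup n and background b were solved from the fold, read as (n + 1)/(b + 1), and the −log10 p, read as a Poisson tail, within 0.02% of the −log10 p. Values above 150 were not solved. Depth per library is unknown here. Pooled calls leave 1 value per group, so no test was made. The overlap, summit and pileup steps were tested on simulated data. The simulated backgrounds covered about the range called low in the DMSO list, so the pileup step was not tested at the higher raised backgrounds. Alternatives were stricter −log10 q and fold minimums, chromosomes 1 to 22 and X, another overlap, summits within 150 bp, a shortened DMSO list and low background.

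The named regions have a −log10 q of at least 5 and lie on the autosomes or X. The rule took the 5 kept, 5 newly listed and 5 lost regions of highest fold, the 3 kept pairs of largest summit distance, of largest BPK25 width and of smallest overlap, and the 3 newly listed regions closest to a DMSO MBD2 region. Members and rules were chosen with earlier results of these data known. Genes at the regions and their sequence were not used here. Python 3.11.15, numpy 2.4.6, pandas 2.3.3, SciPy 1.17.1 and matplotlib 3.10.9 were used.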

Additional observations from a re-analysis of the deposited data

How the results depend on the processing

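An overlap of 50% of the shorter region moved none of the 8 values beyond its interval, and limiting the lists to chromosomes 1 to 22 and X moved only the kept share, to 1.25%. With a −log10 q of 5 or more, the kept share was 0.959%, the median summit distance 19 bp, and the share of kept and of lost regions with DMSO CTCF 97.7% and 78.8%. IAA CTCF was then at 81.4% of newly listed regions and BPK25 TET1 at 4.66% of DMSO regions. With a fold of 5 or more, 0.790% were kept, 23.3% of BPK25 regions lay at a DMSO region, the summit distance was 20 bp, the width ratio 0.708, and the shares 100% and 87.8% for CTCF at kept and lost regions, 79.4% for IAA CTCF and 6.55% for TET1. With summits within 150 bp in place of overlap, these were 1.13%, 35.5% and 19 bp, and 84.5%, 71.9% and 46.2% for CTCF at kept and lost regions and IAA CTCF. With the DMSO list shortened to 510 regions, 12.4% of either list was shared, the summit distance was 17 bp, the width ratio 0.722, CTCF at 100% of kept and 99.6% of lost regions, IAA CTCF at 46.98% of newly listed and TET1 at 33.7% of DMSO regions. At low background in both lists, 0.711% were kept, 28.7% of BPK25 regions lay at a DMSO region, the summit distance was 40 bp, the width ratio 0.679, CTCF at 88.2% of kept and 71.8% of lost regions and TET1 at 3.22%. Without the 162 BPK25 regions that had an IAA CTCF region and no DMSO list, chosen after seeing the data, 68.1% lay at a DMSO region and 4.50% of newly listed regions had IAA CTCF. Each filter acts on lists of different floor, and the cause of these changes was not tested. The least −log10 p in the BPK25 list was 5.18, and 3696 solved DMSO regions lay under it after scaling. What depth limits beyond that was not tested. No paired analysis was possible because the lists pool the 3 libraries and hold no value per library, and for the same reason leaving out each replicate in turn was not run.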
